A study of Arabidopsis thaliana with 23 samples.

Results

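The cytochrome P450 (CYP) genes of Arabidopsis were followed through 9 treatment groups of whole seedlings. The 22 genes described here are those for which the ATH1 platform annotation gives a probe set a single gene with a symbol of the form CYP, number, letter, number, out of 22810 probe sets on the array. Each of the 22 has 1 such probe set, so no choice between probe sets arose. The gene table used for names holds 225 genes with symbols of this form, so most of the superfamily is not analysed here. The members are not a cross-section of it either, since 18 of the 22 belong to the CYP71B subfamily. The other 4 are CYP51G2, CYP78A9, CYP79A2 and CYP84A4. A further 3 probe sets that carry a CYP symbol of this kind were left out, because they name 2 genes or a pseudogene symbol.

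All samples were Col-0 seedlings, for which the labels name no mutation or transgene. They spent 6 or 7 days on agar, then 1 day shaking in liquid medium, and were treated for 3 h. In replicates 1 to 3 a mock was set beside the auxin indole-3-acetic acid (IAA) at 1 µM, kynurenine at 30 µM, PEO-IAA at 10 µM, and both PEO-IAA at 10 µM and IAA at 1 µM, with 3 arrays a group. In replicates 4 and 5 another mock was set beside IAA at 100 nM, PPBo at 10 µM, and both PPBo at 10 µM and IAA at a labelled 1 µM, with 2 arrays a group. Kynurenine and PPBo inhibit the TAA1 and YUCCA steps of IAA synthesis. PEO-IAA is a derivative of IAA that blocks the TIR1/AFB auxin receptors. Every sample is a mixture of all seedling tissues, so fewer cells of a type and less RNA per cell cannot be told apart. Separate cultures are not named in the labels, and a p-value here reflects only how far these samples differ from each other, which may be technical variation.

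Cytochromes P450 are haem enzymes, mostly bound to the endoplasmic reticulum, that insert an oxygen atom from O2 into a substrate with electrons passed on from NADPH. In plants they build and inactivate hormones, lignin precursors, sterols, glucosinolates and many defence compounds. The number in a symbol marks the family and the letter the subfamily. Indolic metabolism, which shares its tryptophan precursor with auxin, runs through several of them. CYP79 enzymes turn amino acids into aldoximes, and some CYP71 family enzymes act further along the route to camalexin. CYP71 genes in Arabidopsis often lie side by side as products of gene duplication. For most CYP71B genes listed here a biochemical role is not given, and they are described by position and value alone.

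Values are MAS5 signals on a linear scale, and group values are means ± SD. Changes are log2 fold changes ± SE of log2(signal + 7.56), where 7.56 is the 10th percentile of all values. For low signals the added constant makes a change look smaller than it is. Of the 22 genes, 13 passed the filter on low values (a mean log2 value above the 30th percentile of all probe sets) and were tested together with the rest of the 15922 probe sets in 1 limma fit. A gene was called at a Benjamini-Hochberg adjusted p below 0.05 over all probe sets of a comparison. The third 1 µM IAA array stood apart, where the GAPDH probe sets for the 3′ and the 5′ end, whose ratio rises as RNA breaks down, gave 24.4 against 1.19 to 2.05 on the other arrays. It also had a limma quality weight of 0.0608. The 6 listed early auxin-induced genes all rose with 1 µM IAA, where 2.12% of all tested probe sets were called. They were listed with earlier results of these data known, so they are no independent check of the treatment. The green tissue marker RCA and the root hair markers EXPA7 and EXPA18 were measured, with mean signals of 16398, 103 and 224, and the other 7 listed green and root markers and all 6 seed markers were not analysed here.

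A single CYP gene in a single comparison passed the test. CYP71B37 (AT3G26330, chromosome 3) fell with 1 µM IAA. Its signal was 162, 149 and 148 in mock replicates 1 to 3 and 89.5, 79.8 and 91.8 in the 3 IAA arrays. Every IAA array lay below every mock array, and the third IAA array, the one that stood apart, read close to the other two. The means were 153 ± 8.16 (n = 3) and 87.1 ± 6.36 (n = 3), a log2 change of -0.76 ± 0.19 (limma adjusted p = 0.0445, 95% interval -1.17 to -0.36). Thus 1 of the 13 tested CYP genes was called with 1 µM IAA, lower, where 2.12% of all tested probe sets were called in either direction and 1.21% lower. At an unadjusted p below 0.05 it was also the only one of the 13, against 17.9% of all probe sets. Its groups were also the only ones among the 13 genes that did not overlap, against 15.8% of all probe sets in either direction and 7.84% lower.

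The fall of CYP71B37 sat close to the threshold. Over 14 alternative settings its log2 change stayed between -0.88 and -0.71, while its call held in 7 and was lost in 7. Leaving out 1 array at a time ended the call in 5 of 6 fits, without mock replicate 1 (adjusted p = 0.174), mock replicate 2 (0.118), mock replicate 3 (0.0964), the second IAA array (0.0773) or the third IAA array (0.062). It held without replicate 1 of the IAA arrays (0.0488), in a fit that called more of all probe sets than the main fit. It was also lost with the mock and IAA arrays alone in the fit (0.26) and without a filter (0.0702).

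**Figure D1:**
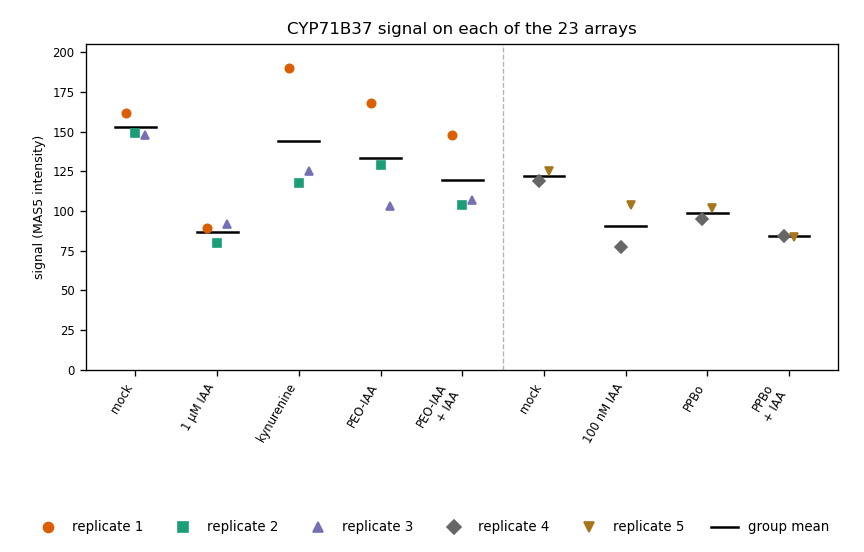
Signal of CYP71B37 (MAS5 intensity, linear axis from 0) on each of the 23 arrays by treatment group, with a marker for each replicate number, a bar for the group mean and a dashed line between replicates 1 to 3 and replicates 4 and 5. All 3 arrays with 1 µM IAA lie between 79.8 and 91.8, below the mock arrays at 148 to 162.

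In the other settings where IAA was given, CYP71B37 did not pass the test. With 100 nM IAA it read 77.7 and 104, against 119 and 125 in mock replicates 4 and 5. Both arrays were below both mock arrays, where 44.6% of all probe sets had groups without overlap. The log2 change was -0.40 ± 0.24. With PPBo CYP71B37 read 95.1 and 102, and with PPBo plus IAA 84.3 and 83.8. The arrays with PPBo plus IAA were below those with PPBo alone, at a log2 difference of -0.21 ± 0.24. They were also below mock, at -0.50 ± 0.24 (limma adjusted p = 0.862). Groups did not overlap for 39.4% and 43.5% of all probe sets in these comparisons, in the same order. With PEO-IAA the signals were 168, 129 and 103, and with PEO-IAA plus IAA 148, 104 and 107, so these groups overlapped, at a log2 difference of -0.14 ± 0.19. Kynurenine arrays read 190, 118 and 125 and spanned the mock values (-0.11 ± 0.19).

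Whether IAA moved CYP71B37 by another amount beside PEO-IAA than alone was asked as an interaction. The difference between the IAA effects was 0.63 ± 0.27 on the log2 scale (95% interval 0.05 to 1.2, unadjusted p = 0.0342), and it did not pass over all probe sets (limma adjusted p = 0.718). The direct comparison of PEO-IAA plus IAA with 1 µM IAA gave 0.41 ± 0.19 (limma adjusted p = 0.407). Its groups did not overlap, as for 9.96% of all probe sets. The effect of 1 µM IAA differed from that of 100 nM IAA by -0.36 ± 0.31, with an interval from -1 to 0.28. These doses were given in different replicate series, each with its own mock, and the mocks themselves did not overlap for this gene (148 to 162 against 119 to 125). When the IAA effect was averaged over its 4 settings, a comparison chosen after seeing the data, 0 of the 13 CYP genes were called by limma against 4.79% of all probe sets, and 3 had an unadjusted p below 0.05 against 13.1%. In this comparison CYP71B37 had a limma adjusted p of 0.0511, and of 0.0389 without the third 1 µM IAA array. The share of all probe sets called without that array is not given here, so this call adds no support.

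Among the genes of indolic metabolism the list holds CYP71B6 (AT2G24180, chromosome 2), an enzyme that converts indole-3-acetonitrile into indole-3-carbaldehyde and indole-3-carboxylic acid. It was at 1160 and 1165 in mock replicates 4 and 5 and at 1716 and 1651 with PPBo. Both PPBo arrays were above every other array of the series, among which the highest was 1553. The log2 change with PPBo was 0.53 ± 0.22 (95% interval 0.06 to 1.00), which did not pass over all probe sets (limma adjusted p = 0.828). It passed when the 4 mock and PPBo arrays were fitted alone (0.0213). That fit called more of all probe sets with PPBo than the main fit, so this pass adds no support. With PPBo plus IAA CYP71B6 read 1493 and 1322, at -0.26 ± 0.22 from PPBo alone, and with 100 nM IAA 1234 and 1045.

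In replicates 1 to 3 CYP71B6 was at 903, 1393 and 1380 in mock and at 1364, 1553 and 1253 with 1 µM IAA. These groups overlapped, at a log2 change of 0.20 ± 0.18 that did not pass. With a replicate block and without the third IAA array, a setting chosen after seeing the data, the change was 0.34 and passed (limma adjusted p = 0.042). That fit called 1744 of all probe sets with 1 µM IAA, against 337 in the main fit. Kynurenine gave 941, 1366 and 1351, a change of 0.00 ± 0.18 with an interval from -0.38 to 0.38. PEO-IAA gave 1207, 1448 and 1374 (0.16 ± 0.18), and PEO-IAA plus IAA 1006, 1506 and 1441 (0.11 ± 0.18). The difference between the PPBo and kynurenine effects, the 2 inhibitors of auxin synthesis at their doses of 10 and 30 µM, was 0.53 ± 0.29 (interval -0.07 to 1.13), and it did not pass. These inhibitors were given in different replicate series, each with its own mock, so inhibitor and series cannot be told apart.

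Other genes of the indolic and glucosinolate pathway were thinly covered, with 3 of 20 listed loci tested. With 1 µM IAA 2 of these 3 fell, BCAT4 (AT3G19710), which starts the elongation of methionine for aliphatic glucosinolates, by -1.27 ± 0.19 and the glucosyltransferase UGT74C1 (AT2G31790) by -0.76 ± 0.13 (adjusted p = 0.000772 and 0.00221). UGT74B1 was at -0.46 ± 0.20. Of all tested probe sets 1.21% were called lower. The median over the 3 genes was -0.76, against 0.00 over all tested probe sets. This list was also chosen with earlier results of these data known, so it is no independent comparison. With PPBo BCAT4, UGT74C1 and UGT74B1 were at 0.25 ± 0.24, 0.16 ± 0.16 and 0.18 ± 0.25, and none passed. In tryptophan synthesis, 1 of 8 listed loci was tested (IGPS, -0.76 ± 0.29 with 1 µM IAA), and in the phenylpropanoid pathway 2 of 18 (HCT, -0.37 ± 0.16, and DFR, -0.65 ± 0.33), and none of these 3 passed. Of the loci listed for the P450 redox partners, the brassinosteroid and sterol pathway, suberin and cutin, abscisic acid, and P450 genes under other symbols, none was tested.

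CYP78A9 (AT3G61880, chromosome 3) belongs to the CYP78A subfamily, whose members act on organ, fruit and seed size. It read 63.9 and 70.4 in mock replicates 4 and 5 and 38.0 and 36.8 with PPBo. These groups did not overlap, as for 42.9% of all probe sets. The change of -0.73 ± 0.32 (interval -1.40 to -0.07) did not pass (limma adjusted p = 0.877). PPBo plus IAA gave 48.0 and 45.2, between the PPBo and mock arrays. In replicates 1 to 3 it read 78.2, 63.8 and 52.1 in mock, 58.0, 77.8 and 145 with 1 µM IAA, and 75.3, 70.1 and 83.0 with kynurenine. The 145 came from the array that stood apart, and the change with 1 µM IAA was 0.41 ± 0.26 with that array and 0.07 without it. PEO-IAA arrays read 57.9, 64.1 and 37.1 and PEO-IAA plus IAA arrays 57.5, 46.2 and 68.4, overlapping the mock. The difference between the PPBo and kynurenine effects was -0.96 ± 0.41 (interval -1.81 to -0.10, unadjusted p = 0.031) and did not pass over all probe sets. CYP78A9 was the tested member closest to the filter, with a mean log2 value of 6.09 against a limit of 6.04.

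CYP84A4 (AT5G04330, chromosome 5), which makes a catechol aldehyde on the way to the arabidopyrones, fell just short of that limit at 6.03 and was not tested with the others. Its signals were 64.7, 48.3 and 47.4 in mock replicates 1 to 3 and 98, 81.6 and 69.9 with PEO-IAA. The 3 PEO-IAA arrays were above the mock arrays, and without a filter the log2 change was 0.57 ± 0.25 (limma adjusted p = 0.892). Of the tested probe sets, which leave out CYP84A4, 12.1% had groups without overlap in this comparison. PEO-IAA plus IAA arrays read 66.4, 55.5 and 60.7. With 1 µM IAA CYP84A4 read 36.3, 49.0 and 76.1, and with kynurenine 54.5, 52.5 and 42.1. Mock replicates 4 and 5 were at 50.3 and 57.1, 100 nM IAA at 41.7 and 63.8, PPBo at 97.2 and 60.1, and PPBo plus IAA at 38.1 and 55.6.

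Most CYP71B members lie in 1 stretch of chromosome 3, from CYP71B16 (AT3G26150) to CYP71B37 (AT3G26330). The gene table lists 24 genes in that stretch, 18 of them CYP71B genes, and 11 are members. Of these 11, 8 were tested. With 1 µM IAA 7 of these 8 had a log2 change below 0 and 1 above, and only CYP71B37, at the end of the row, passed the test. Whether the genes of the stretch moved together was not tested. The next neighbour of CYP71B37, CYP71B36 (AT3G26320), was at 0.05 ± 0.49, CYP71B35 (AT3G26310) at -0.08 ± 0.23 and CYP71B34 (AT3G26300) at -0.27 ± 0.21. Further along, CYP71B26 (AT3G26290) was at -0.11 ± 0.24, CYP71B24 (AT3G26230) at -0.04 ± 0.47 and CYP71B22 (AT3G26200) at -0.03 ± 0.21. CYP71B23 (AT3G26210) was at -0.44 ± 0.29, and its 3 IAA arrays read 1681, 1734 and 526. The 526 came from the array that stood apart and was the lowest value of this gene in the series, where the other 22 arrays lay between 1199 and 1888. Without that array the change of CYP71B23 was 0.12, in the other direction, and with array weights 0.17. Mock arrays of CYP71B23 read 1723, 1321 and 1684, kynurenine arrays 1740, 1451 and 1486, PEO-IAA arrays 1428, 1300 and 1888, and PEO-IAA plus IAA arrays 1684, 1665 and 1769. CYP71B23 in replicates 4 and 5 was at 1497 and 1318 in mock, 1246 and 1383 with 100 nM IAA, 1291 and 1415 with PPBo, and 1324 and 1199 with PPBo plus IAA, and the changes against mock there lay between -0.16 and -0.05.

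CYP71B34 read 326, 531 and 431 in mock replicates 1 to 3 and 240, 371 and 363 with kynurenine, overlapping groups at -0.39 ± 0.21. It read 337, 312 and 399 with 1 µM IAA, 293, 396 and 425 with PEO-IAA, and 251, 452 and 327 with PEO-IAA plus IAA. Array by array of the same number, CYP71B34 was below mock in 3 of 3 pairs with kynurenine, 3 of 3 with PEO-IAA and 3 of 3 with PEO-IAA plus IAA, comparisons that share the mock arrays. The share of all probe sets below mock in 3 of 3 pairs is not given here. With the replicate number as a block the changes were -0.39 ± 0.15, -0.20 ± 0.15 and -0.33 ± 0.15, and none passed over all probe sets (limma adjusted p = 1, 0.99 and 0.607). The unadjusted limma p with the block was 0.0201, 0.219 and 0.048, in the same order. Of all probe sets 2.86%, 6.74% and 8.18% had an unadjusted p below 0.05 in these comparisons. CYP71B34 in replicates 4 and 5 was at 399 and 371 in mock, 334 and 385 with 100 nM IAA, 477 and 397 with PPBo, and 435 and 435 with PPBo plus IAA. CYP71B26 read 802, 1204 and 1076 in mock replicates 1 to 3, 955, 1037 and 825 with 1 µM IAA, and 619, 1185 and 1111 with kynurenine. PEO-IAA gave 881, 990 and 1321 and PEO-IAA plus IAA 751, 1209 and 1007, so the mock range was overlapped throughout. CYP71B26 in replicates 4 and 5 was at 1108 and 1143 in mock, 944 and 1115 with 100 nM IAA, 841 and 1287 with PPBo, and 1148 and 1182 with PPBo plus IAA.

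CYP71B35 was the one member of the stretch whose PEO-IAA and mock arrays did not overlap. It read 107, 101 and 103 with PEO-IAA and 57.9, 93.4 and 79.1 in mock, a log2 change of 0.42 ± 0.23 that did not pass. With PEO-IAA plus IAA it read 98.9, 75.2 and 74.7, below the PEO-IAA arrays, at -0.31 ± 0.23. Groups did not overlap for 12.1% and 11.6% of all probe sets in these comparisons of CYP71B35, in the same order. In replicates 4 and 5 it was at 97.3 and 102 in mock, 111 and 129 with 100 nM IAA, 91.3 and 142 with PPBo, and 81.1 and 95.5 with PPBo plus IAA. In replicates 1 to 3 CYP71B35 read 48.3, 70.4 and 104 with 1 µM IAA and 56.6, 71.4 and 74.3 with kynurenine, overlapping mock.

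CYP71B22 had its lowest mean with PEO-IAA plus IAA, 181 ± 56.3 (n = 3), against 237 ± 39.9 in mock, a change of -0.40 ± 0.21. The arrays behind these means read 243, 132 and 169 and 278, 198 and 234, and overlapped. CYP71B22 read 236, 210 and 244 with 1 µM IAA, 226, 196 and 304 with kynurenine, and 172, 251 and 228 with PEO-IAA. With 100 nM IAA it read 194 and 292, below the 337 and 358 of mock replicates 4 and 5 (-0.53 ± 0.26). Groups did not overlap for 44.6% of all probe sets there. PPBo arrays of CYP71B22 were at 328 and 335 and PPBo plus IAA arrays at 296 and 318.

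Outside that stretch, CYP71B5 (AT3G53280) lies further along chromosome 3 and CYP71B28 (AT1G13090) and CYP71B29 (AT1G13100) lie side by side on chromosome 1. CYP71B5 read 172, 185 and 169 in mock replicates 1 to 3 and 105, 164 and 116 with PEO-IAA plus IAA. These groups did not overlap, as for 11.9% of all probe sets. The change of CYP71B5, -0.45 ± 0.20 (interval -0.86 to -0.03), did not pass (limma adjusted p = 0.679). PEO-IAA alone gave 191, 118 and 169, 1 µM IAA 153, 215 and 135, and kynurenine 150, 172 and 212, all overlapping mock. In replicates 4 and 5 CYP71B5 was at 220 and 245 in mock, 181 and 161 with 100 nM IAA, 288 and 304 with PPBo, and 236 and 285 with PPBo plus IAA. The 100 nM IAA arrays were below and the PPBo arrays above both mock arrays, at -0.43 ± 0.24 and 0.34 ± 0.24. Groups did not overlap for 44.6% and 42.9% of all probe sets there.

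CYP71B29 was lower, without passing, in each of the 4 settings where IAA was added. The log2 differences were -0.30 ± 0.19 (1 µM), -0.34 ± 0.23 (100 nM), -0.30 ± 0.19 (with PEO-IAA) and -0.29 ± 0.23 (with PPBo). This was not particular to CYP71B29, since CYP71B37, CYP71B22 and CYP71B5 were also lower in all 4. The share of all probe sets lower in all 4 is not given here. The means of CYP71B29 were 157 ± 18.6 in mock and 126 ± 16.6 with 1 µM IAA (n = 3 each). Its highest IAA array, 145, was above its lowest mock array, 141. CYP71B29 arrays read 149, 137 and 187 with kynurenine, 180, 137 and 177 with PEO-IAA, and 114, 178 and 112 with PEO-IAA plus IAA. The replicate 4 and 5 arrays read 152 and 162 in mock, 141 and 105 with 100 nM IAA, 138 and 154 with PPBo, and 110 and 127 with PPBo plus IAA. CYP71B28 read 132, 241 and 301 in mock replicates 1 to 3 and 249, 243 and 243 with 1 µM IAA. The IAA arrays lay within the spread of the mock, and the change was 0.20 ± 0.24. Kynurenine gave 147, 212 and 235, PEO-IAA 196, 229 and 242, and PEO-IAA plus IAA 161, 252 and 215. CYP71B28 in replicates 4 and 5 was at 296 and 264 in mock, 207 and 241 with 100 nM IAA, 186 and 269 with PPBo, and 246 and 211 with PPBo plus IAA.

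**Figure D2:**
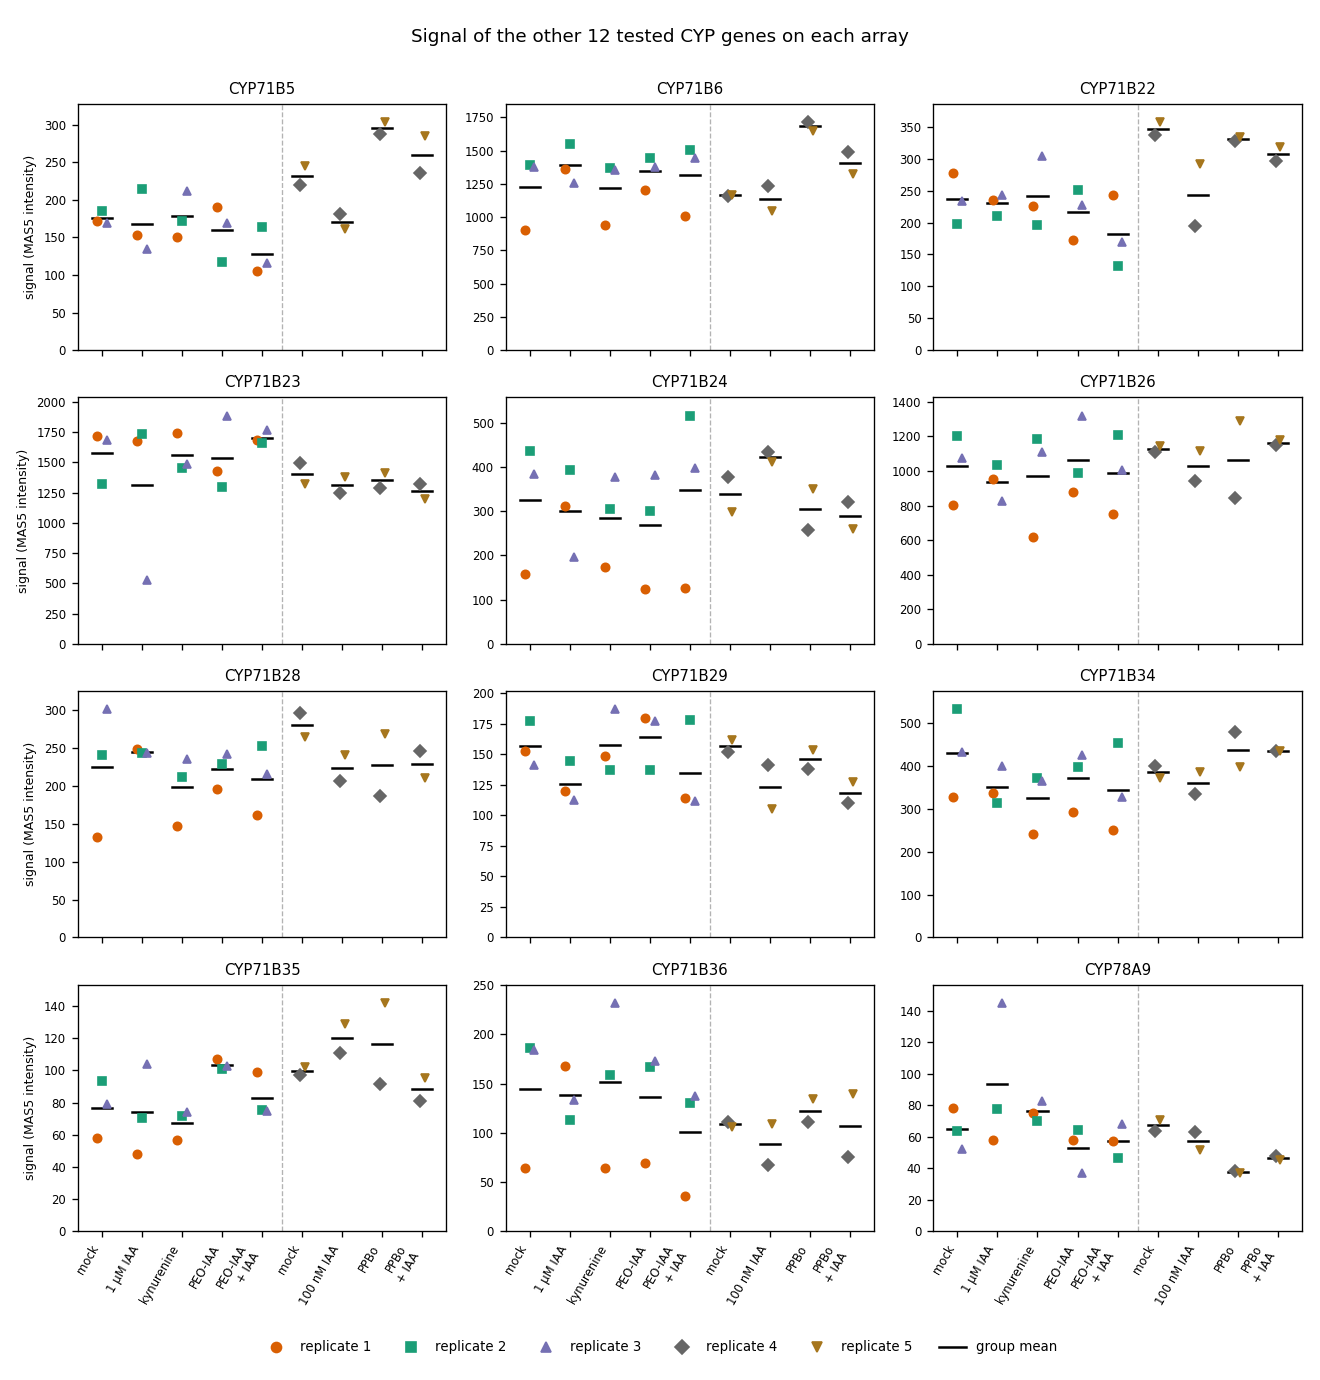
Signal (MAS5 intensity, linear axes from 0, a scale for each gene) of the other 12 tested CYP genes on each array by group, with a marker for each replicate number, bars for group means and a dashed line between replicates 1 to 3 and replicates 4 and 5. CYP71B6 is highest on the 2 PPBo arrays (1716 and 1651), CYP71B23 reads 526 on the third 1 µM IAA array, and replicate 1 of CYP71B24 and CYP71B36 lies low in every group of replicates 1 to 3 except 1 µM IAA.

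The inhibitors and combinations gave no called CYP gene. With kynurenine 0 of 13 were called by limma and 0 reached an unadjusted p below 0.05, where 0.00628% and 1.9% of all probe sets did. With PEO-IAA the counts were 0 and 0, against 0.653% and 5.06%. With PEO-IAA plus IAA they were 0 and 1 against mock (1.07% and 6.37%), 0 and 0 against PEO-IAA (1.29% and 6.21%) and 0 and 2 against 1 µM IAA (0.364% and 12.2%). The 2 in the last comparison were CYP71B37 (0.41, and 0.45 without the third IAA array) and CYP78A9 (-0.56, and -0.22 without it), and the 1 against mock was CYP71B5. Groups that did not overlap were seen for 0 of 13 CYP genes with kynurenine (7.19% of all probe sets), 1 with PEO-IAA (12.1%), and, with PEO-IAA plus IAA, 2 against mock (11.9%), 1 against PEO-IAA (11.6%) and 1 against 1 µM IAA (9.96%). Of 13 listed detoxification genes 4 were tested, and all 4 rose with PEO-IAA, among them the glutathione transferase GSTU22 (AT1G78340) by 2.26 ± 0.23 and the glucosyltransferase UGT73B4 (AT2G15490) by 2.68 ± 0.31 (adjusted p = 2.74e-05 and 8.96e-05). In the same comparison both tested root hair markers fell, EXPA7 by -2.11 ± 0.39 and EXPA18 by -1.71 ± 0.23 (adjusted p = 0.00899 and 0.000297), and their part in the other values was not tested. EXPA18 was also lower with PPBo plus IAA against mock, at -1.18 ± 0.28 (0.0452). The median over the 4 detoxification genes was 2.47, and over the 13 CYP genes -0.05, with a range from -0.29 to 0.42. The detoxification genes were also listed with earlier results of these data known, so they are no independent comparison.

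With 100 nM IAA 0 of 13 CYP genes were called by limma and 0 had an unadjusted p below 0.05, against 0.32% and 3.88% of all probe sets. With PPBo the counts were 0 and 2 (0.358% and 5.15%), the 2 being CYP71B6 and CYP78A9. With PPBo plus IAA they were 0 and 0 against mock (0.986% and 5.83%) and 0 and 0 against PPBo (0.603% and 5.02%). With 2 arrays a group, groups that do not overlap were common. They made up 8 of 13 CYP genes with 100 nM IAA, 5 with PPBo, 9 with PPBo plus IAA against mock and 6 against PPBo, where the shares of all probe sets were 44.6%, 42.9%, 43.5% and 39.4%. The differences between 2 effects gave 0 calls as well, where limma gave 1 unadjusted p below 0.05 for the interaction (0.1% called and 6.22% of all probe sets unadjusted), 1 for PPBo against kynurenine (0.0251% and 3.1%) and 0 for the IAA doses (0% and 2.81%).

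A missed threshold does not show that these genes were unmoved, so the intervals matter. The 95% interval of the log2 change lay wholly between -1 and 1 for 9 of the 13 genes with 1 µM IAA, 11 with kynurenine, 11 with PEO-IAA, 10 with 100 nM IAA and 10 with PPBo. The widest intervals were those of CYP71B24 and CYP71B36. With kynurenine they ran from -1.12 to 0.85 and from -1 to 1.07. All these intervals come from the fit without a replicate block, so they include variation shared by arrays of the same number. PEO-IAA and IAA differ by the phenyl-bearing oxo side group that PEO-IAA carries, but their doses were 10 µM and 1 µM, so their values are set side by side only. CYP71B37 was at -0.21 ± 0.19 and -0.76 ± 0.19, CYP71B35 at 0.42 ± 0.23 and -0.08 ± 0.23, and CYP78A9 at -0.27 ± 0.26 and 0.41 ± 0.26, the last being 0.07 without the third IAA array.

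**Figure D3:**
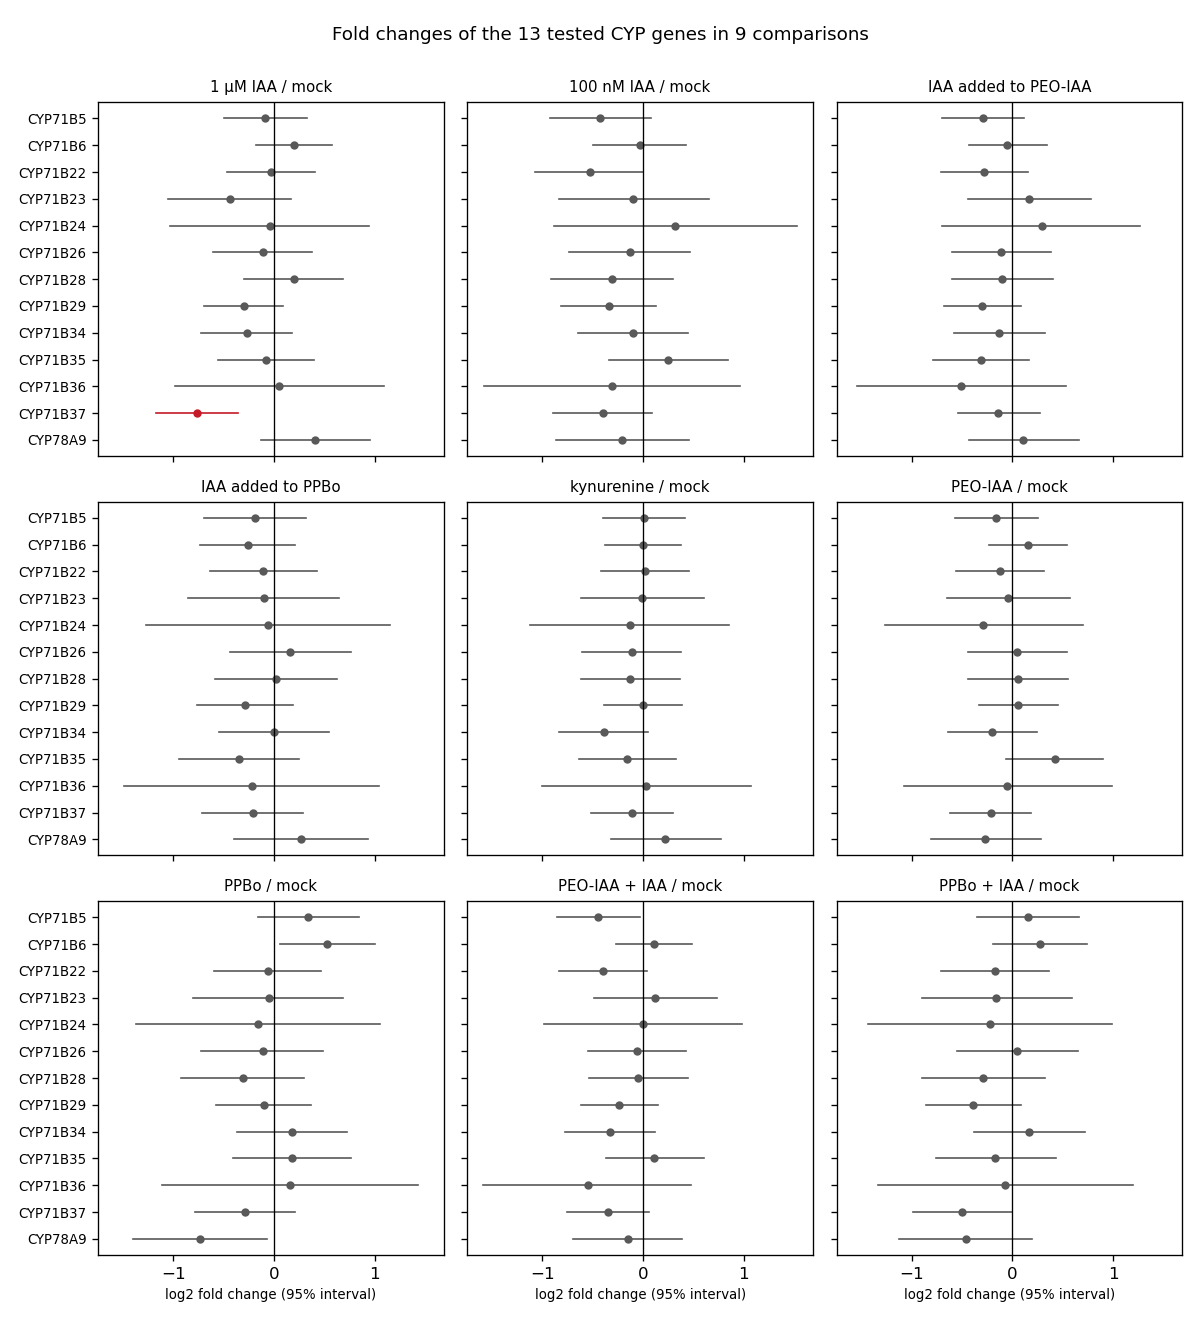
Log2 fold changes (points) with 95% intervals (lines) of the 13 tested CYP genes in 9 comparisons, on a shared axis, with called values in red. The 1 called value is CYP71B37 with 1 µM IAA (-0.76), and CYP71B24 and CYP71B36 have the widest intervals.

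In both genes with wide intervals the low array within a group was replicate 1. CYP71B36 read 64.7, 186 and 184 in mock replicates 1 to 3, 64.0, 159 and 232 with kynurenine, 69.7, 167 and 173 with PEO-IAA, and 35.6, 130 and 137 with PEO-IAA plus IAA. CYP71B24 read 157, 437 and 384 in mock, 174, 305 and 376 with kynurenine, 124, 301 and 382 with PEO-IAA, and 127, 516 and 398 with PEO-IAA plus IAA. In these 4 groups replicate 1 of both genes was the lowest, at 26.7 to 51.2% of the mean of replicates 2 and 3. With 1 µM IAA it was not, since CYP71B36 read 168, 113 and 133 and CYP71B24 312, 393 and 197. In replicates 4 and 5 CYP71B36 was at 111 and 106 in mock, 67.5 and 109 with 100 nM IAA, 111 and 134 with PPBo, and 75.7 and 139 with PPBo plus IAA. CYP71B24 was at 378 and 299 in mock, 434 and 411 with 100 nM IAA, 257 and 351 with PPBo, and 320 and 259 with PPBo plus IAA.

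The same order, replicate 1 lowest in all 4 groups other than 1 µM IAA, held for 6 of the 13 tested CYP genes, the others being CYP71B6, CYP71B26, CYP71B28 and CYP71B34. It held for 13.6% of all tested probe sets. CYP71B37 ran the other way, with replicate 1 highest in those 4 groups, as did 10.7% of all probe sets. In the 1 µM IAA group its replicate 1 lay between the other two. What replicate 1 shared across groups was not tested, and the 1 µM IAA group was singled out here after its values were seen. With the replicate number as a block the call of CYP71B37 held (limma adjusted p = 0.0087), and no other CYP gene was called. That fit called 903 of all probe sets with 1 µM IAA, against 337 in the main fit. The 1 µM IAA arrays did not share the replicate pattern of the other groups (correlations -0.14 to 0.0354), so the lower p adds no support.

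**Figure D4:**
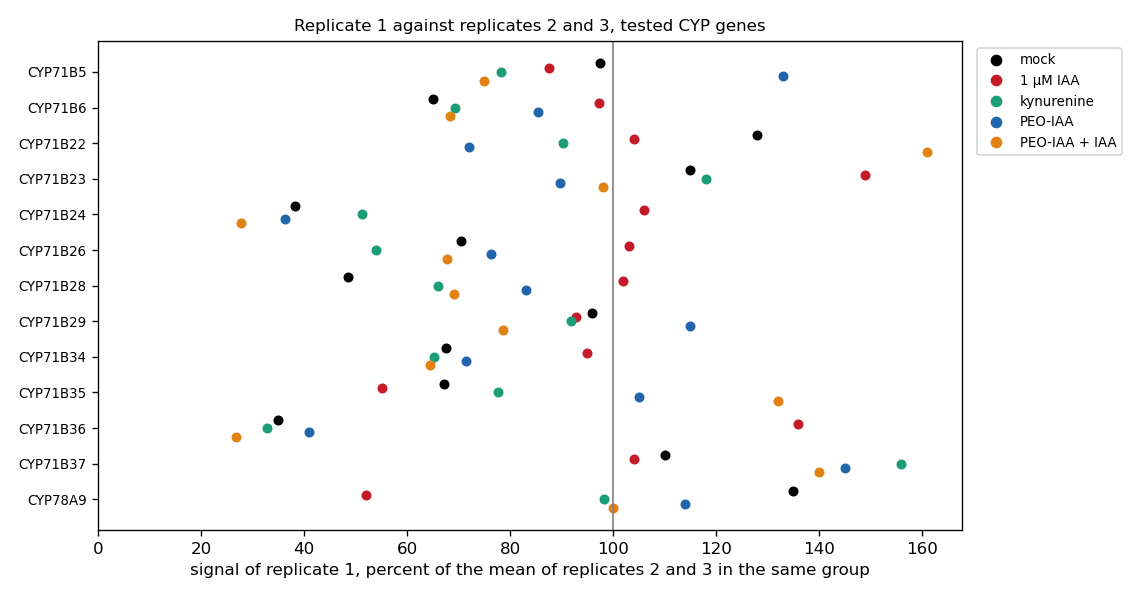
Signal of replicate 1 as a percentage of the mean of replicates 2 and 3 in the same group, for the 13 tested CYP genes and the 5 groups of replicates 1 to 3 (colours), with a line at 100%. CYP71B24 and CYP71B36 lie between 26.7 and 51.2% in 4 groups and above 100% with 1 µM IAA, and CYP71B37 lies above 100% in all 5.

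The remaining 9 members stayed below the filter. Whether they were above background was not analysed here. CYP79A2 (AT5G05260), which turns phenylalanine into its aldoxime for benzylglucosinolate, ranged from 0.926 to 19.4 over the 23 arrays with a median of 2.43. CYP71B31 (AT3G53300), an oxidase of the terpene alcohol linalool, ranged from 0.472 to 23.7 with a median of 1.88. Both extremes of CYP79A2 came from replicates 4 and 5, a PPBo array and a mock array.

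Within the chromosome 3 stretch, CYP71B16 ranged from 0.43 to 16.7, CYP71B21 (AT3G26190) from 0.38 to 14.9 and CYP71B25 (AT3G26270) from 2.68 to 62.8. Outside it, CYP71B27 (AT1G13070), a transcribed pseudogene in the gene table, ranged from 2.26 to 51.7 and CYP71B38 (AT3G44250) from 10.6 to 42.4. CYP51G2 (AT2G17330), also a transcribed pseudogene there and related to the sterol demethylase gene family, read 57.3, 54.7 and 53.8 in mock replicates 1 to 3 but 40.3 and 6.21 in mock replicates 4 and 5. Its highest signal was 73.2, with PEO-IAA. Tested without a filter, none of the 9 was called in any of the 13 comparisons (limma, smallest adjusted p = 0.484), where 0.432% of all values of that fit were called. Of their 117 values 2 had an unadjusted p below 0.05, against 6.17% of all values.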

How the data were processed

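RNA of whole seedlings was measured on 23 ATH1 arrays. The deposited values are MAS5 signal intensities, which the authors made with MAS5 (version not given in the sources used here), per the submitters' processing notes; the 2% trimmed mean was 500.04 to 500.05 on every array, and no further scaling was applied. Precision is limited by the number of arrays. The fit left out 64 control probe sets of the 22810. It used log2(signal + 7.56) with limma 3.58.1 in R 4.3.3 (lmFit, eBayes with a trended prior) as 9 group means with 14 residual degrees of freedom, and p-values were adjusted by Benjamini-Hochberg over 15922 probe sets in each of 13 comparisons. A simulation of 15922 probe sets was run for 1 µM IAA against mock. It recovered 74% of changes of 1 and 99% of changes of 2 on the log2 scale, with 10 false calls. No other comparison was simulated, so recovery in the groups with 2 arrays is not known. Whether the simulated noise included the array that stood apart, or deviations shared by same-numbered arrays, is not given here. The recovered shares may therefore not hold for the real arrays.

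Gene names came from the platform annotation (13513 probe sets with 1 gene, 503 with several, 8794 unnamed here), of which 13436 matched the TAIR10.1 gene table, used for names and gene order only. Start coordinates served only to order the genes of the chromosome 3 stretch, and no sequences were used here. The members, role groups and lists were chosen with earlier results of these data known. The filter was first computed on mean signals, then on mean log2 values, and the second was kept after the calls of both had been seen; both tested the same 13 members, and the first gave 356 calls with 1 µM IAA against 337. By the naming rule any member may be named, called members (without one, the 5 highest and 5 lowest changes) and the brightest of each role group are given array by array, and of other genes up to 4 called ones of a list with the smallest p, or uncalled ones with their values. Deviations from group means of same-numbered arrays correlated at 0.299 or more in all 18 pairs among mock, kynurenine, PEO-IAA and PEO-IAA plus IAA, which the numbers therefore pair, at -0.14 to 0.0354 in the 12 pairs with 1 µM IAA, and at 0.0296 to 0.17 in replicates 4 and 5.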

Additional observations from a re-analysis of the deposited data

How the results depend on the processing

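Alternatives changed the count of called CYP genes in 2 of 13 comparisons. With 1 µM IAA, where 1 was called, the count was 0 without a filter, 0 with a filter at the 50th percentile (which leaves 7 CYP genes and not CYP71B37), 0 with the mock and IAA arrays alone, and 0 to 1 when 1 array was left out. It was 2 with a replicate block and without the third IAA array, a setting chosen after seeing the data, where CYP71B6 joined at 0.34 (adjusted p = 0.042) and CYP71B37 was at -0.88 (0.00213). With PPBo, where none was called, CYP71B6 was the 1 call with the mock and PPBo arrays alone (0.0213) and the 1 call with the block and without the third IAA array (0.0184); leaving out arrays gave 0 to 0. The PPBo fits in which CYP71B6 was called also called more of all probe sets than the main fit, so these calls add no support. The planned replicate block gave 1 call with 1 µM IAA and 0 in the other 12 comparisons and changed no call. The call of CYP71B37 held with a pseudocount of 0.95 (0.045), quantile normalization (0.0342), array weights (0.00857) and the filter on mean signals (0.0436, chosen after seeing the data). With array weights more of all probe sets were called with 1 µM IAA than in the main fit, so the lower p of CYP71B37 there adds no support. In the other 11 comparisons the count was 0 in every alternative run. Over all probe sets the 337 calls with 1 µM IAA ran from 55 with the mock and IAA arrays alone to 1744 with the block and without the third IAA array, and the 57 with PPBo from 10 without mock replicate 5 to 287 with array weights. Elsewhere the counts over all probe sets also moved by over 1.5 times: 51 with 100 nM IAA (12 to 480), 104 with PEO-IAA (54 to 315), 1 with kynurenine (0 to 9), 170, 206 and 58 with PEO-IAA plus IAA against mock (50 to 611), PEO-IAA (84 to 540) and IAA (0 to 395), 157 and 96 with PPBo plus IAA against mock (59 to 639) and PPBo (48 to 284), and 16, 4 and 0 for the differences between effects (1 to 227, 1 to 56 and 0 to 19). No called value turned its direction, and 207 of 2652 alternative values of single genes had another sign than a value that was uncalled in both fits. Dim signals limit what can be said, since 9 of the 22 genes lay below the filter.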

Other observations

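After the values of CYP71B37 and CYP71B29 had been seen, the effect of added IAA was averaged over its 4 settings (mock of replicates 1 to 3, PEO-IAA, mock of replicates 4 and 5, and PPBo), which mixes 1 µM and 100 nM, and was tested over all probe sets. No CYP gene was called, where 4.79% of all tested probe sets were. CYP71B37 was at -0.38 ± 0.11 on the log2 scale (limma adjusted p = 0.0511) and CYP71B29 at -0.31 ± 0.10 (0.122). Without the third 1 µM IAA array CYP71B37 was at -0.39 and was called (limma adjusted p = 0.0389), and CYP71B29 was at -0.29 (0.124). The share of all probe sets called without that array is not given here. With all arrays the unadjusted limma p was below 0.05 for CYP71B37 (0.00247), CYP71B29 (0.00797) and CYP71B5 (0.0372, at -0.25 ± 0.11). It was below 0.05 for 13.1% of all tested probe sets. The other 10 tested genes lay between -0.25 and 0.15.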
